A study of Mus musculus with 7 samples.

Results

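The 9 genes described here (Slc7a11, Hmox1, Srxn1, Nqo1, Gclc, Gclm, Txnrd1, Gsr and Gpx2) are textbook targets of Nrf2, chosen by name from 19938 genes measured on 7 one-colour Affymetrix arrays of mouse intestine. Each is read by 1 probe set that carries its symbol alone. All mice were 3 months old and of mixed C57Bl6/129Sv background. Colon of mice given oral dextran sulfate sodium (DSS), a polymer toxic to the gut lining that brings on colitis, for 7 days, followed by 3 days of plain water, gave 2 arrays from Atg4b knock-out (KO) and 1 from wild-type (WT) mice. Untreated ileum and untreated colon each gave 1 KO and 1 WT array. Of the 6 groups 5 hold 1 array. Differences of the genotype effect between conditions therefore count as part of the spread behind the p-values. Whether untreated ileum and colon of a genotype came from the same mouse is not stated, so that spread may also be partly technical.

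Nrf2, encoded by Nfe2l2, is a transcription factor that the Keap1 protein, with the Cul3 and Rbx1 ubiquitin ligase, normally marks for destruction. Oxidants and electrophiles modify Keap1, Nrf2 then accumulates, pairs with small Maf proteins and binds the antioxidant response element near genes for glutathione synthesis, thioredoxin recycling, quinone reduction and heme breakdown. In the gut these enzymes protect the epithelium against oxidants from inflammatory cells, food and bacteria. Atg4b is a protease that processes the LC3 and GABARAP proteins of autophagosomes. Autophagy is linked to Nrf2 by the receptor p62 (Sqstm1), which can bind Keap1 and is itself degraded in autophagosomes.

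The arrays carried the genotype they were labelled with. Log2 intensity of Atg4b was 5.39 to 5.45 on the 4 KO arrays and 7.35 to 7.72 on the 3 WT arrays. The tissue labels held too, since the mean log2 intensity of 6 ileum markers was 12.58 and 12.36 on the ileum arrays against 6.09 to 6.30 on the colon arrays. KO DSS replicate 1 stood apart from the other DSS arrays in colon markers. Its log2 intensity of Hoxd13 was 6.64 (8.19 and 9.12 on the other DSS arrays, 6.27 and 6.29 in ileum), that of Hoxb13 8.59 (10.50 and 10.54) and that of Tgm3 10.03 (11.82 and 12.08), while its other 3 colon markers were no lower than those of KO DSS replicate 2. For the 9 genes, results without this array are given where it changes a call. Calls of the listed genes and markers are given with all arrays only. Sex did not follow its label on the 3 WT arrays, of which untreated ileum and colon were labelled female and DSS colon male. On the 4 KO arrays it did. Xist, the RNA of the inactive X chromosome, was at 12.16 to 12.55 on the 3 DSS arrays and at 5.19 to 5.52 on the 4 untreated arrays, while the Y-linked Eif2s3y ran the other way (4.28 to 4.39 against 9.39 to 9.77). DSS treatment and the sex shown by these genes therefore cannot be told apart in any comparison of DSS with control colon, whereas KO and WT arrays of a condition shared their sex pattern.

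The start regions of 6 of the 9 genes are in the RefSeq promoter table (GRCm38.p6; 250 bases before to 50 after each start, 8 windows in all); Hmox1, Gclc and Gsr are not. They were searched on both strands for TGACNNNGC, the core of the antioxidant response element, and for TGANTCA, the AP-1 letters, which overlap it in part. TGACNNNGC was found in 3 of the 6 genes (Srxn1, Gclm and, in the second of its 3 windows, Txnrd1), against 14.0% of all 27025 genes in the table. TGANTCA was found in Srxn1 alone, at 2 places, against 9.0% of all genes. Letters added after the data were seen were TGANTCAGC, a longer site that contains the AP-1 letters (Srxn1 alone, against 1.4% of all genes), and TGATGNAA, the amino acid response element bound by Atf4, found at 2 places in Slc7a11 and in no other window of the 6 genes, against 4.5% of all genes. The windows of Nqo1, Gpx2 and the other Txnrd1 windows held none of these letters, which says nothing of sites elsewhere. The windows that hold a match are shown, since 3 of these genes rose in DSS colon and Gclm did not; capitals mark the matches, and a match on the other strand reads as its reverse complement. The Slc7a11 window is chr3:50443564-50443863 (minus strand), that of Srxn1 chr2:152105274-152105573 (plus strand), that of Txnrd1 chr10:82858956-82859255 (plus strand) and that of Gclm chr3:122245307-122245606 (plus strand).
Slc7a11: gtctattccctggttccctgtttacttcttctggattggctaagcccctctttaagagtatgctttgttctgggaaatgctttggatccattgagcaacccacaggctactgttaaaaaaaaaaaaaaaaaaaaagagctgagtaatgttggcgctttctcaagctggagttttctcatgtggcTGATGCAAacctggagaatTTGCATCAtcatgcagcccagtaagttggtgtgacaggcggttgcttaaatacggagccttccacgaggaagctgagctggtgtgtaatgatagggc
Srxn1: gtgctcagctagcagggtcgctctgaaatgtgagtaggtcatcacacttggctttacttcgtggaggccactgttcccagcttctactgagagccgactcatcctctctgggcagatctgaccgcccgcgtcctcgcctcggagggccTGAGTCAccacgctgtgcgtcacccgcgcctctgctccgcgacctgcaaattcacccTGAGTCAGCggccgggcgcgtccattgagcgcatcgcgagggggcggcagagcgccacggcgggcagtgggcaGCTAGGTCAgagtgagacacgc
Txnrd1: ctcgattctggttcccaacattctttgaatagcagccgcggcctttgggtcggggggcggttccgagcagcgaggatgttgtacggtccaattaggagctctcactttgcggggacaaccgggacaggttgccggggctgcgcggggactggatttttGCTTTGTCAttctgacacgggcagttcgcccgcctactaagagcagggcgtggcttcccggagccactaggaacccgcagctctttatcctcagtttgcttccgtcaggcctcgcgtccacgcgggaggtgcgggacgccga
Gclm: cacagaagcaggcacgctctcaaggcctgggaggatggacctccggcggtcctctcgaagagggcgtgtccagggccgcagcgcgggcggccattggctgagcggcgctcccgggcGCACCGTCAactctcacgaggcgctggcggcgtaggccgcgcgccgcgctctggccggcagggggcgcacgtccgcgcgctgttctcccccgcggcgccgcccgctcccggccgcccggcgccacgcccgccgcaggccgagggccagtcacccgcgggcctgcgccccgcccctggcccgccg
In Slc7a11 both matches are TGATGCAA, starting at bases 185 (plus) and 204 (minus) of the window. In Srxn1 the TGAGTCA at base 149 stands alone, the one at base 206 is part of TGAGTCAGC, and TGACCTAGC lies on the minus strand at base 279. The Gclm match is TGACGGTGC at base 117 and the Txnrd1 match TGACAAAGC at base 159, both on the minus strand.

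In DSS colon 5 of the 9 genes rose: the cystine importer Slc7a11 (5.78-fold), heme oxygenase Hmox1 (3.09-fold), sulfiredoxin Srxn1 (2.13-fold), the gut glutathione peroxidase Gpx2 (1.85-fold) and thioredoxin reductase Txnrd1 (1.74-fold). Glutathione reductase Gsr did not pass (1.45-fold, adjusted p = 0.066), nor did the quinone reductase Nqo1 or the subunits of glutamate-cysteine ligase, Gclc and Gclm. The test was limma over all 19938 genes with Benjamini-Hochberg adjustment (3 DSS arrays against 2 control colons, genotype in the model), in which 10.6% of all genes passed, 7.20% of all genes higher and 3.43% lower. At an unadjusted p under 0.05 there would be 6 genes, with Gsr, against 26.3% of all genes. The median log2 difference of the 9 genes was 0.80, against -0.01 over all genes. All 3 DSS arrays lay above both control colons for those same 5 genes, which 22.1% of all genes did, and no member lay below on all of them (18.0% of all genes).

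**Figure D1:**
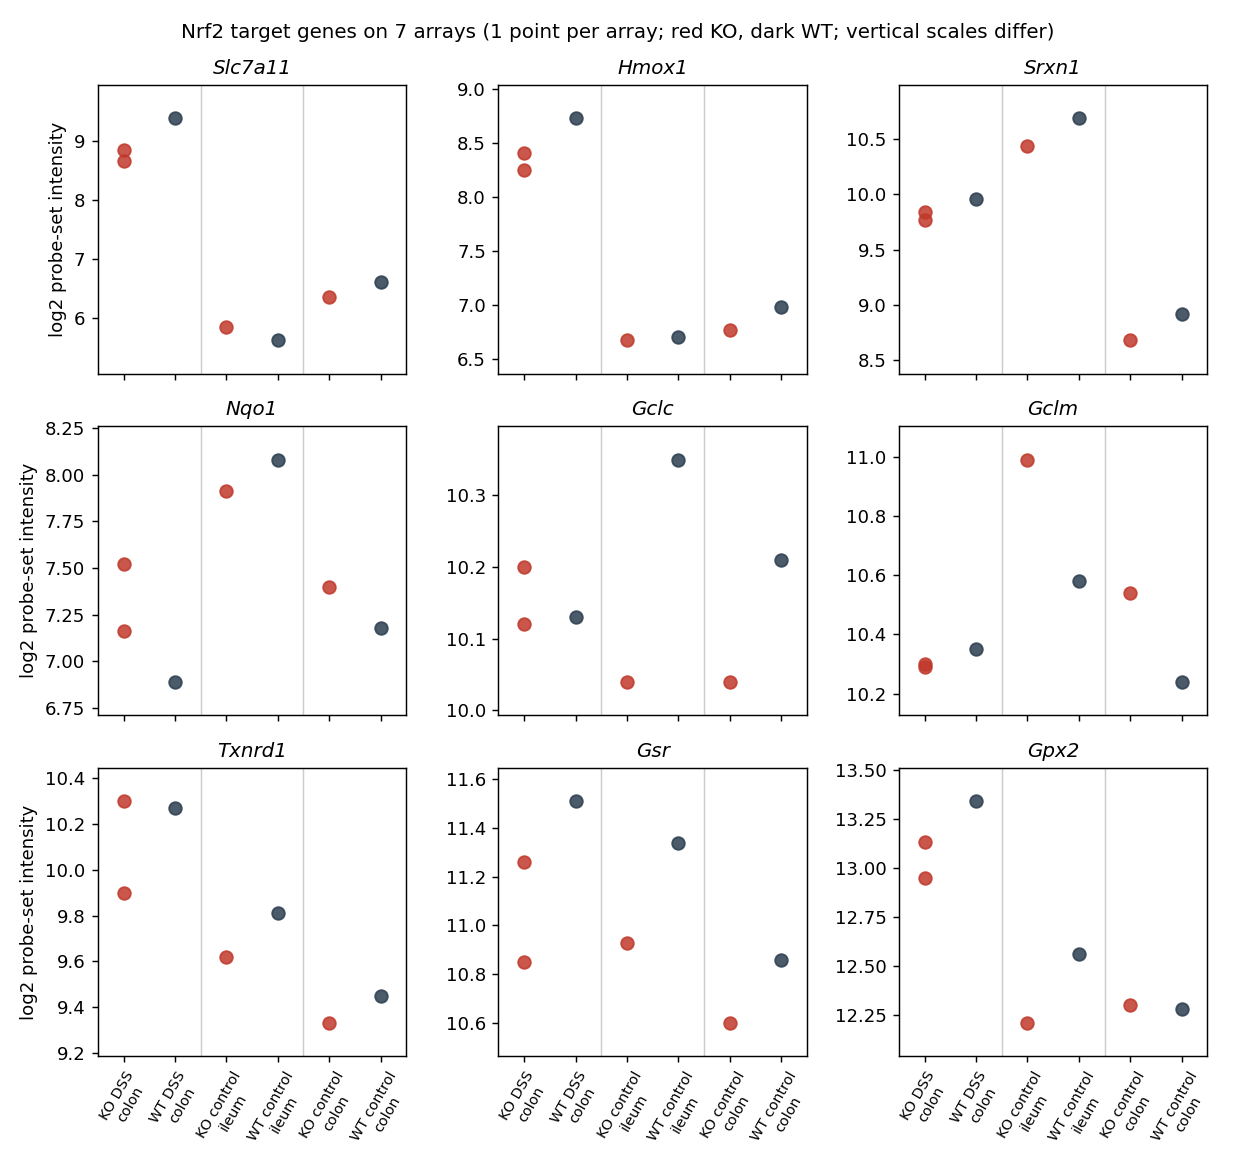
Log2 probe-set intensity of the 9 genes on each array, KO in red and WT in dark, with each panel on its own vertical scale. Slc7a11, Hmox1, Srxn1, Txnrd1 and Gpx2 have all 3 DSS points above both control colon points, and Srxn1 is highest in ileum.

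Slc7a11 encodes the light chain of the antiporter that imports cystine, the limiting precursor of glutathione, in exchange for glutamate. Its log2 intensity was 8.67 and 8.86 in KO DSS colon and 9.39 in WT DSS colon, against 6.37 in KO and 6.61 in WT control colon. Every DSS array stood far above both controls, and WT DSS colon was the highest. The difference was 2.53 ± 0.20 (SE; adjusted p = 0.00205, limma), the 86th largest of all 19938 genes in size, higher on 3 of 3 DSS arrays. Hmox1, the inducible enzyme that splits heme into biliverdin, iron and carbon monoxide, was at 8.25 and 8.41 in KO DSS colon and at 8.73 in WT DSS colon, against 6.77 in KO and 6.98 in WT control colon. Again no DSS array came near a control, with a difference of 1.63 ± 0.12 (adjusted p = 0.00198, limma).

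The thiol enzymes Srxn1, Txnrd1 and Gpx2 rose by smaller amounts. Srxn1, which repairs overoxidised peroxiredoxins, was at 9.77 and 9.84 in KO DSS colon and at 9.96 in WT DSS colon, against 8.68 in KO and 8.92 in WT control colon. The 3 DSS values lay close together and clear of the controls, a difference of 1.09 ± 0.10 (adjusted p = 0.00308, limma). Txnrd1, the cytosolic enzyme that reduces thioredoxin, was at 9.90 and 10.30 in KO DSS colon and at 10.27 in WT DSS colon, against 9.33 in KO and 9.45 in WT control colon. Its difference was 0.80 ± 0.14 (adjusted p = 0.0204, limma), with KO replicate 1 the lowest of the DSS arrays. Gpx2, which removes hydroperoxides in gut epithelium, had 12.95 and 13.13 in KO DSS colon and 13.34 in WT DSS colon, against 12.30 in KO and 12.28 in WT control colon. The control pair was nearly equal and every DSS array lay above it, and the difference was 0.89 ± 0.13 (adjusted p = 0.0114, limma). Gsr, which regenerates reduced glutathione, had 10.85 and 11.26 in KO DSS colon and 11.51 in WT DSS colon, against 10.60 in KO and 10.86 in WT control colon. Here KO DSS replicate 1 fell just under the WT control, so that the groups overlapped (0.54 ± 0.14).

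The remaining 3 genes showed no such difference. Gclc, the catalytic subunit for the first step of glutathione synthesis, had 10.20 and 10.12 in KO DSS colon and 10.13 in WT DSS colon, against 10.04 in KO and 10.21 in WT control colon. Over all 7 arrays Gclc had the narrowest range of the 9 genes, 10.04 to 10.35, and its DSS difference of 0.05 had a 95% interval of -0.23 to 0.33. Gclm, the regulatory partner of Gclc, had 10.30 and 10.29 in KO DSS colon and 10.35 in WT DSS colon, against 10.54 in KO and 10.24 in WT control colon. Its DSS values sat between the controls, with a difference of -0.11 and an interval of -0.43 to 0.21. Nqo1, which reduces quinones without forming radicals, had 7.52 and 7.16 in KO DSS colon and 6.89 in WT DSS colon, against 7.40 in KO and 7.18 in WT control colon. The Nqo1 groups overlapped (-0.13, interval -0.56 to 0.30), so that the upper ends of the 3 intervals lie below the lower ends of those of Slc7a11, Hmox1, Srxn1, Txnrd1 and Gpx2.

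**Figure D2:**
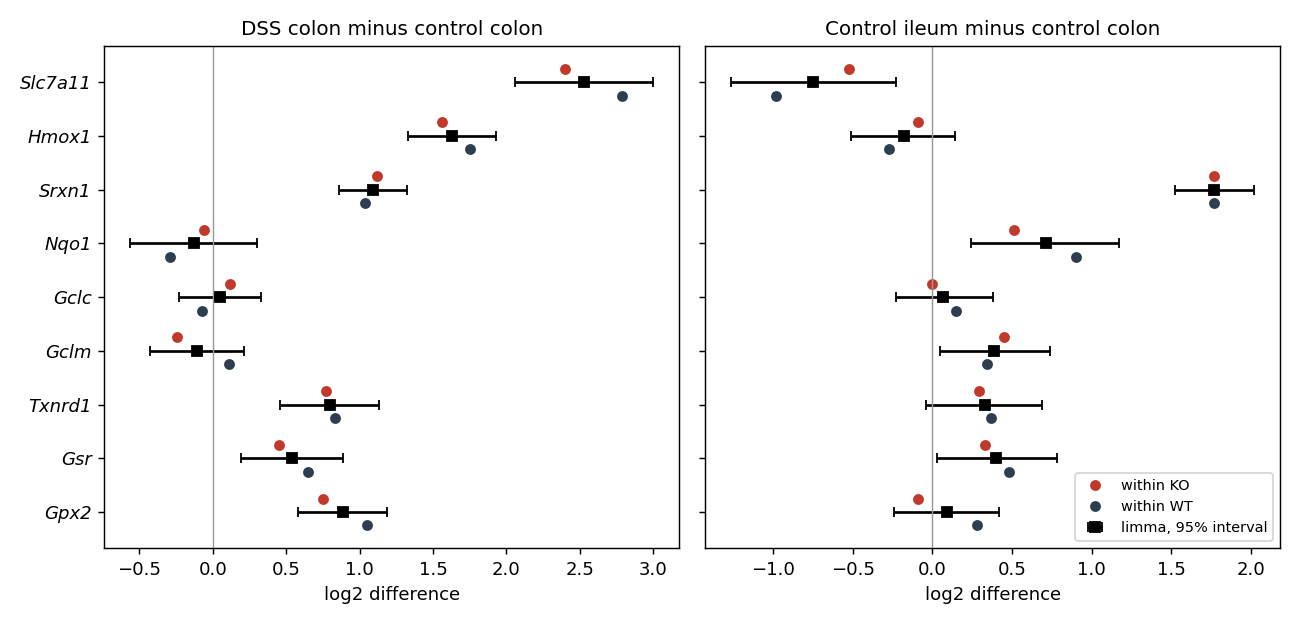
Log2 differences of the 9 genes for DSS colon minus control colon (left) and control ileum minus control colon (right). Squares are the limma estimates with 95% intervals, and circles are the differences within KO (red) and within WT (dark), which have no error of their own. Slc7a11 leads on the left at 2.53 and Srxn1 on the right at 1.77.

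These calls leaned on few arrays. Hmox1 passed with any single array left out. Slc7a11 and Srxn1 missed the threshold without the KO control colon (adjusted p = 0.052 and 0.0555), as did Gpx2 and Txnrd1 (0.0573 and 0.138), which left 1 of the 9 genes. Without the WT control colon or without the WT DSS array, 3 genes passed, with Gpx2 (0.0926 and 0.0719) and Txnrd1 (0.133 and 0.105) the ones lost. Txnrd1 also missed without KO DSS replicate 2 (0.0535), and Gsr passed without KO DSS replicate 1 (0.0119), where the 5 genes above passed too, and also with the variance trend and robust fit (0.0381) and with dim genes left out (0.0468). Fewer genes passed over the whole table as well: 183 without the KO control colon, 216 without the WT control colon, 526 when the WT DSS array was dropped, 800 when KO DSS replicate 2 was, against 2120 with all arrays and 3549 without KO DSS replicate 1.

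Genes that control or accompany Nrf2 were read from lists. The shares to set beside their counts in DSS colon are those of all genes, 7.20% higher and 3.43% lower. The message of Nrf2 itself, Nfe2l2, was at 10.87 to 11.07 on the 3 DSS arrays, against 10.99 in KO and 11.16 in WT control colon, a difference of -0.10 ± 0.14 that did not pass. Of the 11 regulators 3 rose and none fell. Keap1 rose by 0.64 ± 0.13 (adjusted p = 0.0308, limma), with 8.56 and 8.86 in KO DSS colon and 8.83 in WT DSS colon, against 7.98 in KO and 8.28 in WT control colon. Rbx1, its ligase partner, rose by 0.57 ± 0.13 (adjusted p = 0.0426, limma). Bach1, the heme-sensitive repressor that competes for the same element and holds Hmox1 down, rose by 0.51 ± 0.10 (adjusted p = 0.0267, limma). Cul3 (-0.21 ± 0.11), Bach2 (-0.31 ± 0.20), the related factor Nfe2l1 (0.06 ± 0.11) and Sqstm1 (-0.15 ± 0.12) did not pass. Among the small Maf partners Maff had 0.49 ± 0.16, Mafk 0.16 ± 0.16 and Mafg 0.07 ± 0.12, none of them past the threshold.

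A list of further Nrf2 targets had calls in both directions. Of its 24 measured genes 1 rose, Pgd of the NADPH-producing pentose phosphate pathway (0.80 ± 0.15; adjusted p = 0.0224, limma), and 4 fell. The glutathione transferases Gstm1 (-1.55 ± 0.27) and Gstm3 (-1.55 ± 0.24) fell most, followed by Ugdh, which makes UDP-glucuronic acid (-0.84 ± 0.17), and carbonyl reductase Cbr1 (-0.67 ± 0.13). Gstm1 had 10.61 and 9.96 in KO DSS colon and 9.39 in WT DSS colon, against 11.48 in KO and 11.46 in WT control colon. The median of this list was -0.07, against -0.01 over all genes. In the glutathione list 1 of 13 rose, the mitochondrial glutaredoxin Glrx5 (0.49 ± 0.10), while Chac1, which degrades glutathione, stood at 1.08 ± 0.30 and did not pass (adjusted p = 0.0715). Of 12 thioredoxin and peroxiredoxin genes 1 fell, the thioredoxin inhibitor Txnip (-0.58 ± 0.13), and none rose. Catalase, Cat, fell (-0.79 ± 0.17), whereas the 3 superoxide dismutases did not pass.

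The heme and amino acid lists hold the partners of Hmox1 and Slc7a11; Hmox2, Chac1, Slc3a2 and Cbr1 are named outside the rule for listed genes, after their values were seen. Of 13 heme genes 2 rose, Alas1, the first enzyme of heme synthesis (1.12 ± 0.17; adjusted p = 0.0144, limma), and haptoglobin, Hp, which binds free hemoglobin (2.21 ± 0.44; adjusted p = 0.0292, limma). The constitutive Hmox2 had -0.08 ± 0.12. Of 12 amino acid response genes 4 rose and none fell, with a list median of 0.53. Psat1 of serine synthesis rose by 1.73 ± 0.26, asparagine synthetase Asns by 1.65 ± 0.16, the leucine transporter Slc7a5 by 1.65 ± 0.20 and the transcription factor Atf4 by 0.56 ± 0.11. Slc3a2, the heavy chain that Slc7a11 needs, had 11.13 and 11.20 in KO DSS colon and 11.36 in WT DSS colon, against 10.92 in KO and 10.96 in WT control colon, which did not pass (0.29 ± 0.13). Over all 83 measured genes of these lists 11 rose and 6 fell in DSS colon, with a median of 0.14. Of all genes 7.20% rose and 3.43% fell, with a median of -0.01.

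**Figure D3:**
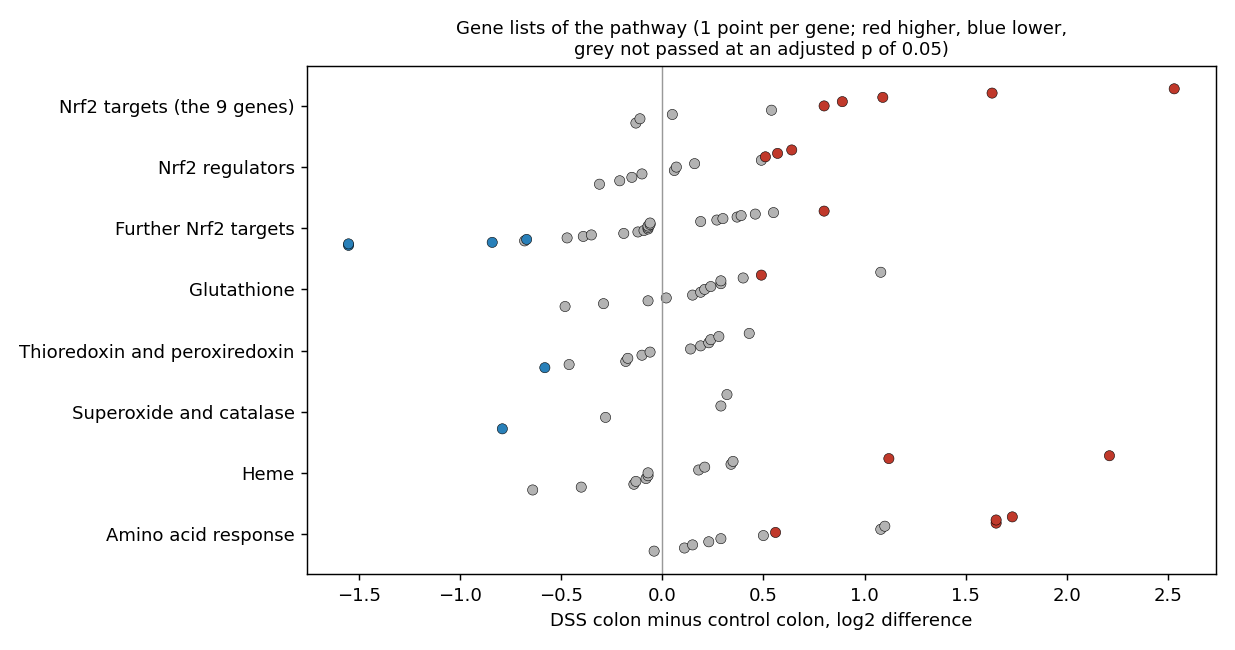
Log2 difference of each gene of the pathway lists between DSS colon and control colon, with red for genes that rose, blue for genes that fell and grey for genes that did not pass at an adjusted p of 0.05. The 9 genes are in the top row, with a median of 0.80, and the further Nrf2 targets have a median of -0.07.

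Cell type markers moved with DSS beside these genes, in a comparison that called 7.20% of all genes higher and 3.43% lower. Of 9 neutrophil markers 8 rose, and their summed intensity was 1693 to 2414 on the DSS arrays against 428 to 509 on the control colons. Of 9 macrophage and monocyte markers 3 rose (Cd68, Ccr2 and Fcgr1), with sums of 3696 to 4547 in DSS colon and 2554 to 3012 in control colon. In that list 7 differences were positive and 2 negative. Of 9 epithelial markers 1 rose (Krt20), with sums of 46459 to 48048 and 42213 to 44322. Of 9 smooth muscle markers 2 fell (Acta2 and Des), with sums of 7295 to 24024 and 35667 to 36774. All 9 had negative differences, with a median of -1.65. Of 6 colon markers 2 fell (the water channel Aqp8, -0.96 ± 0.16, and the chloride exchanger Slc26a3, -0.92 ± 0.16); all 6 had negative differences, with a median of -1.05 and sums of 14767 to 21872 in DSS colon and 31421 to 34555 in control colon. Array intensities do not reach 0, so no marker could be called absent. The part of these shifts in the rise of Slc7a11, Hmox1 and the others was not tested. In whole tissue, fewer cells of a type and less RNA per cell cannot be told apart.

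**Figure D4:**
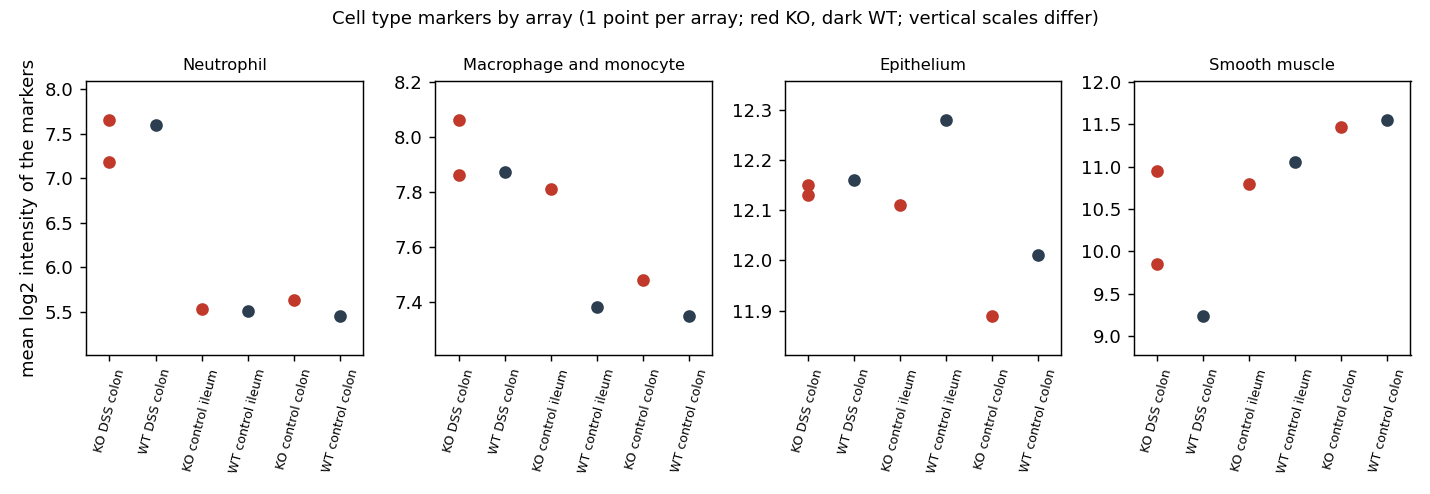
Mean log2 intensity of the neutrophil, macrophage, epithelial and smooth muscle marker lists on each array, KO in red and WT in dark, with a separate vertical scale per panel. Neutrophil markers are at 7.18 to 7.65 on the 3 DSS arrays and at 5.46 to 5.63 on the 4 untreated arrays, and smooth muscle markers are lowest in WT DSS colon, at 9.24.

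Untreated ileum differed from untreated colon in 1 of the 9 genes. Srxn1 was higher, with 10.44 in KO and 10.69 in WT ileum against 8.68 in KO and 8.92 in WT colon, by 1.77 in each genotype (1.77 ± 0.10; adjusted p = 0.000246, limma; 2 arrays against 2). It passed with any single array left out. Of all genes 9.16% passed in this comparison, 5.94% of all genes higher and 3.22% lower, and at an unadjusted p under 0.05 5 of the 9 stood against 22.1% of all genes. The Srxn1 levels in ileum also exceeded all those of DSS colon, so that DSS colon lay between untreated colon and untreated ileum. Srxn1 thus had another order of levels than Slc7a11 and Hmox1, whose 4 untreated arrays all lay below every DSS array.

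The other 8 genes did not pass between ileum and colon. Nqo1 had 7.91 in KO and 8.08 in WT ileum against 7.40 in KO and 7.18 in WT colon, with no overlap (0.71 ± 0.19; adjusted p = 0.0815, limma), and passed without KO DSS replicate 1 (adjusted p = 0.0243). Slc7a11 pointed the other way, with 5.85 in KO and 5.63 in WT ileum against 6.37 in KO and 6.61 in WT colon (-0.75 ± 0.21; adjusted p = 0.0917, limma). The WT ileum value lay under the lower quartile of all genes on its array (5.78). Slc7a11 passed without KO DSS replicate 1 (0.0488) and when the WT DSS array was dropped (0.0494). Gclm (0.39 ± 0.14), Gsr (0.40 ± 0.16) and Txnrd1 (0.33 ± 0.15) had higher values in both ileum arrays than in both colons. Hmox1 had -0.18 ± 0.14, Gpx2 0.09 ± 0.14 and Gclc 0.07 ± 0.13. In all 5 genes lay above without overlap and 2 below, patterns that 25.8% and 28.2% of all genes showed.

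Several partners of these genes did differ by tissue, in a comparison that called 5.94% of all genes higher in ileum and 3.22% lower. Of the 11 regulators Bach1 alone passed, higher in ileum by 0.94 ± 0.11 (adjusted p = 0.00335, limma). Of the 24 further targets 4 were higher in ileum and 6 lower. The 4 with the largest change were the efflux pump Abcc2 (3.67 ± 0.35) and malic enzyme Me1 (1.88 ± 0.35), both higher, and the aldo-keto reductase Akr1b8 (-1.86 ± 0.20) and Gstm3 (-1.69 ± 0.26), both lower. Of 12 thioredoxin and peroxiredoxin genes 1 was higher, the stress-induced Sesn1 (2.27 ± 0.16), and 1 lower, Txnip (-0.74 ± 0.14). Of 13 glutathione genes 3 were higher, the cytosolic glutaredoxin Glrx (1.14 ± 0.13), Slc3a2 and the lipid peroxide reductase Gpx4 (0.68 ± 0.11). Cat was higher by 0.83 ± 0.18 and the superoxide dismutases did not pass. Of 12 amino acid response genes 2 were higher, Asns (0.82 ± 0.18) and Slc3a2, and of 13 heme genes none passed. Slc3a2 was higher in ileum by 0.82 ± 0.15 (adjusted p = 0.0183, limma), the opposite sign to its light chain Slc7a11. Adipocyte markers, 3 of 5 higher in ileum with sums of 2328 and 2891 against 481 and 1284 in colon, moved with this comparison. So did 2 of 9 epithelial markers, Vil1 (1.28 ± 0.10) and Krt20 (1.10 ± 0.12), and 1 of 9 macrophage markers, Csf1r (0.78 ± 0.17), all higher in ileum. Both lists were mixed, with 5 positive and 4 negative epithelial differences and 6 positive and 3 negative macrophage differences. The lowest of these was Cd14 (-1.19 ± 0.43), which did not pass. No smooth muscle marker passed, with sums of 22213 and 25590 in ileum against 35667 and 36774 in colon. The part of these markers in the comparison was not tested.

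The series was made to compare Atg4b KO with WT intestine, and none of the 9 genes passed in that comparison. In limma over all conditions (4 KO against 3 WT arrays) 1 gene of all 19938 passed (0.00502%), Atg4b itself, and 0 of the 9. Gsr (-0.38 ± 0.12) and Srxn1 (-0.21 ± 0.08) were the 2 members under 0.05 before adjustment, against 3.61% of all genes. Both had an adjusted p of 0.989 in limma. Mean KO values were below WT in every condition for 4 genes, Hmox1, Srxn1, Txnrd1 and Gsr, as for 14.2% of all genes. They were above in all conditions for none (8.55%). For Txnrd1 in DSS colon, KO replicate 2 alone (10.30) lay just above WT (10.27). Gsr had KO minus WT differences of -0.40 for ileum, -0.26 for untreated colon and -0.45 for DSS colon. The 95% interval for Gsr ran from -0.67 to -0.09 and that for Hmox1 from -0.48 to 0.02.

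In DSS colon alone 7 of the 9 genes had lower mean values in KO, but again 0 passed, as did 0% of all genes. With KO DSS replicate 2 left out 538 of all genes passed, and with replicate 1 left out 25; each of these fits sets 1 KO array against 1 WT array, assumes that both vary like the other groups, and is no check on the 9 genes. Slc7a11 differed by -0.63 ± 0.20 (2 KO arrays against 1 WT; unadjusted p = 0.0205, adjusted p = 1, limma), the 1 gene of the 9 with an unadjusted p under 0.05, against 3.89% of all genes. Hmox1 had -0.40 ± 0.17, Gsr -0.45 ± 0.21 and Gpx2 -0.29 ± 0.19, while Nqo1 had 0.46 ± 0.22. Both KO arrays lay below the WT array for 6 genes and above it for 1, patterns of 32.4% and 34.2% of all genes. The smooth muscle sums were 24024 and 11560 on the KO arrays and 7295 on the WT array, and all 9 smooth muscle markers had higher fitted values in KO (median 1.21). All 6 colon markers had lower ones in KO (median -0.79, sums of 17487 and 14767 on the KO arrays and 21872 on the WT array). Of 9 neutrophil markers 3 had an unadjusted p under 0.05 in limma, Clec4e (-1.32 ± 0.27) and Csf3r (-0.58 ± 0.15) lower and Retnlg (0.78 ± 0.20) higher in KO, and none of these markers passed after adjustment. The part of these markers in the differences of the 9 genes was not tested.

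No difference in the DSS response between genotypes was detected for the 9 genes, which does not show that the responses were equal: in the test of the interaction 0 passed and 0 had an unadjusted p under 0.05 (0% and 3.20% of all genes, limma). Without KO DSS replicate 2 there were 279 calls among all genes and without replicate 1 there were 18, under the same assumption about single arrays. Slc7a11 was higher after DSS by 2.30 and 2.49 in the KO arrays and by 2.79 in WT, with an interaction of -0.62 ± 0.26 (interval -1.26 to 0.01; adjusted p = 1). Srxn1 was higher by 1.09 and 1.16 in KO and by 1.04 in WT, with an interaction of 0.08 (interval -0.39 to 0.56). Gclm had -0.24 and -0.25 in KO and 0.11 in WT, with an interaction of -0.41 (interval -0.89 to 0.07). The widest interval, with 1 WT DSS array, was that of Nqo1 (-0.27 to 1.12). The p62 gene Sqstm1 had a KO minus WT difference of 0.10 over all conditions and 0.18 in DSS colon, neither of which passed, and Nfe2l2 had -0.03 in DSS colon.

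**Figure D5:**
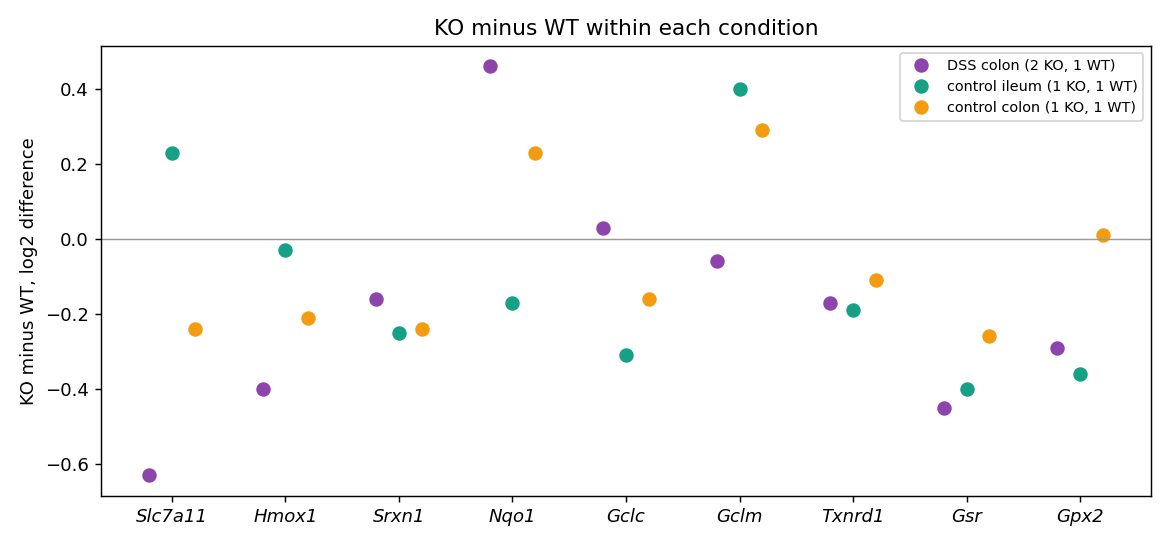
KO minus WT log2 difference of each of the 9 genes in DSS colon (mean of 2 KO arrays minus 1 WT), control ileum and control colon (1 array each). Hmox1, Srxn1, Txnrd1 and Gsr lie below 0 in all conditions, and the lowest point is Slc7a11 in DSS colon at -0.63.

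Levels of the 9 genes fell into a few orders over the 6 groups. WT DSS colon came first and KO DSS colon second for Slc7a11, Hmox1, Txnrd1 and Gpx2, and WT DSS colon came first for Gsr. Ileum came first for Srxn1, Nqo1, Gclc and Gclm. The only spread within a group is that of the 2 KO DSS arrays, which differed by 0.01 (Gclm) to 0.41 (Gsr). Of 45 steps between neighbouring groups 24 were larger than the same gene's gap between those arrays and 21 were not, among them all steps of Gsr and Txnrd1. A gap of 2 arrays is itself a poor measure of spread, and 8 steps were larger than the widest of them (0.41), namely the drop from DSS colon to the next group for Slc7a11, Hmox1, Srxn1 and Gpx2, the steps of Srxn1 and Nqo1 below ileum, and for Slc7a11 the steps below WT DSS colon and below control colon. Across the 9961 brighter genes (mean above the median) the patterns most like the mean standardised profile of the 9 were those of Tmem238 (Pearson r = 0.993), Sh3bp2 (0.988), Rrbp1 (0.986), Abhd17a (0.986) and Anxa2 (0.984), each over 7 arrays. These r values describe the 7 arrays, which share 3 tissue and treatment conditions, and are the highest of many. The mean profile joins unlike genes: between pairs of the 9, r ran from -0.75 (Slc7a11 and Nqo1) to 0.99 (Slc7a11 and Hmox1).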

How the data were processed

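RNA was prepared from intestinal pieces on RNeasy columns and labelled with biotin by an Affymetrix kit, per the labels' protocols. The authors deposited 1 linear intensity per probe set and array; the sources used here do not give how probes were summarised and normalized. Values run from 10.4 to 22236.4, and array medians lie between 121.4 and 126.45, so they were taken as normalized and log2 was computed here. If an unstated step equalised the arrays, a shift shared by all genes is lost. The number of arrays limits the precision.

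Of 35512 probe sets, 21789 carry 1 gene symbol in the platform annotation, 1621 several and 12102 none here. The probe set with the highest mean was used per gene. The 9 genes, the lists and the tests were chosen with earlier results of these data known. The rule for named genes takes all 9, all regulators, up to 4 passing genes per list with the largest change, and the 5 genes most like the mean profile.

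Models were fitted with limma 3.58.1 in R 4.3.3 with Benjamini-Hochberg adjustment and a threshold of 0.05. The first held condition and genotype (3 residual degrees of freedom). The second (2) let the genotype effect in DSS colon differ from the effect shared by untreated ileum and colon. The first model alone was tested on simulated data, drawn from that same model with normal noise. Such data cannot check its assumptions, and the second model was not simulated. Values with ± are log2 differences with their standard error. Figures were drawn with matplotlib 3.10.9.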

Additional observations from a re-analysis of the deposited data

Results flagged for a closer look

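Gpx2 pointed in opposite directions between untreated ileum and untreated colon in the genotypes, with an ileum minus colon log2 difference of -0.09 in KO and 0.28 in WT. Each value rests on 1 array against 1, and the difference between the genotypes was not tested.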

How the results depend on the processing

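Alternatives were quantile normalization, centring of arrays, log2 of the value plus 32, leaving out dim genes (Slc7a11 among them), averaged probe sets, all probe sets tested, a robust fit with a variance trend, one mean per group, labelled sex as a covariate, the colon arrays alone, and each array left out in turn. Of 715 recomputed differences of the 9 genes, 681 kept direction and call. This share is no measure of stability, since part of it was fixed in advance. Each of the 9 has 1 probe set, so averaging could not change its differences. For DSS, the colon arrays alone and the fits without either ileum array were the same fit. The KO and interaction comparisons had no call to lose, and all 12 lost calls were DSS differences. The DSS count of 5 became 2 with one mean per group and 1 to 6 with an array left out; it was 6 with the variance trend, where Gsr was added, and 5 with dim genes left out, where Slc7a11 was not tested and Gsr passed. The ileum count of 1 became 2 with labelled sex and 1 to 3 with an array left out. The KO, KO in DSS colon and interaction counts were 0 in every fit run, of which those without a KO DSS array set single arrays against each other. Over all genes, DSS gave 1436 higher and 684 lower, and 1267 and 983 under quantile normalization; one mean per group called 297, the leave-one-out fits from 183 to 3549. For ileum one mean per group called 764 against 1826, the leave-one-out fits 660 to 2418. KO against WT over all conditions called 0 or 1. With the variance trend 10 of all genes passed for KO in DSS colon and 2 for the interaction, and with dim genes left out 1 for KO in DSS colon, against 0 each. The signs that turned were of differences that passed in no fit. Under quantile normalization Gclc became -0.03 for DSS and -0.02 for ileum. With an array left out, the DSS difference ran from 0 to 0.15 for Gclc and from -0.27 to 0.04 for Nqo1, the ileum difference from -0.05 to 0.20 for Gclc and from -0.07 to 0.26 for Gpx2 (0 without the WT ileum), the KO difference in DSS colon from -0.02 to 0.07 for Gclc and from -0.37 to 0.03 for Txnrd1, and the interaction from -0.22 to 0.18 for Txnrd1 (0.02 without either control colon), from -0.33 to 0.08 for Gsr and from -0.31 to 0.07 for Gpx2. The causes were not tested. Labelled sex is fixed by genotype and DSS together, so as a covariate it stands for their interaction and could not be fitted beside it. The label also went against Xist on the 3 WT arrays, so the fit with labelled sex is no adjustment for sex. Nothing gives KO against WT in DSS colon without the 1 WT DSS array. No paired analysis was possible because replicate numbers occur in 1 group alone (KO DSS colon).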
